A study of Arabidopsis thaliana with 12 samples.

Results

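The 9 beta-tubulin genes of Arabidopsis thaliana, TUB1 to TUB9, were taken by locus identifier. They are TUB1 (AT1G75780), TUB2 (AT5G62690), TUB3 (AT5G62700), TUB4 (AT5G44340), TUB5 (AT1G20010), TUB6 (AT5G12250), TUB7 (AT2G29550), TUB8 (AT5G23860) and TUB9 (AT4G20890), and all 9 were among the 18366 genes of the pfd4 table and the 19397 genes of the 6x_pfd table. The study sequenced mRNA of whole Col-0 seedlings in 4 groups of 3 biological samples grown in vitro. At 14 days, labelled LD and ZT1, pfd4 was compared with WT. At 7 days, labelled LL, 6x_pfd was compared with its own WT. The 14-day titles carry the word mock and no treatment is described. The labels name the mutants by genotype only and give no alleles. By name, pfd4 is mutant in the prefoldin gene PFD4 alone and 6x_pfd in 6 prefoldin genes. Values per library and depth per library were not analysed here. The spread between samples therefore enters only through the standard error (SE) of each log2 fold change in the authors' deposited table, written after ± below, with n = 3 samples per group. A gene was called when its adjusted p in the authors' deposited table (DESeq2, Wald test, Benjamini-Hochberg adjustment over the table) was below 0.05.

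Beta-tubulin pairs with alpha-tubulin to form the dimer that polymerises into microtubules, the filaments that guide cellulose deposition in growing plant cells and build the spindle and phragmoplast in dividing ones. Newly made tubulin chains are passed by prefoldin, a complex of 6 different subunits, to the chaperonin CCT, and are then joined into dimers with the help of tubulin folding cofactors. In animal cells an excess of free tubulin dimers leads to decay of tubulin mRNAs during translation, through recognition of the first 4 amino acids of the new chain. The plant beta-tubulin genes are known to differ in where they are used: TUB1 transcripts are lowered by light, TUB9 is known from pollen and TUB6 transcripts fall in the cold.

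The coding starts are shown because they encode the first amino acids of the chain. These are the first 30 coding bases of TUB8, TUB5, TUB1 and TUB9, the genes whose responses differed most between the mutants, in 5′ to 3′ direction from the RefSeq annotation of TAIR10.1, with the first 4 codons in capitals. TUB8 lies on the plus strand of chromosome 5, TUB5 and TUB1 on the minus strand of chromosome 1, and TUB9 on the plus strand of chromosome 4.
TUB8: ATGCGAGAGATTcttcacatacaaggtggc
TUB5: ATGAGAGAGATCcttcacattcaaggtggt
TUB1: ATGAGAGAAATCctccacgtccaaggcggc
TUB9: ATGAGAGAAATTcttcatattcaaggaggt
These 12 bases differed among the 9 genes, yet in all 9 they encode the same 4 amino acids. Of 27443 annotated protein-coding genes, 16 (0.0583%) begin with codons for the same 4 amino acids: the 9 beta-tubulin genes, the 3 alpha-tubulin genes TUA1, TUA3 and TUA5, and 4 others.

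The 9 genes also share their structure. Each has 3 coding exons, and the middle one is 270 bases in all 9. The first is 394 bases in 7 of them and 397 in TUB1 and TUB5, and coding lengths ran from 1335 to 1353 bases. Over 36 pairs the coding identity ran from 78.7% to 97.6% with a median of 80.2%, and that of the encoded proteins from 90.4% to 100%. The closest pairs were TUB2 with TUB3, which differ at 32 of 1353 coding bases and encode the same protein, TUB1 with TUB5 (87.4% coding identity) and TUB4 with TUB9 (87.3%). TUB2 and TUB3 are neighbours on the plus strand of chromosome 5. The last 60 coding bases encode most of the acidic tail, which lies on the microtubule surface and is where beta-tubulins differ most. They are shown for the pairs of equal coding length, with bases that differ within the pair in capitals. TUB4 is on the minus strand of chromosome 5.
TUB2: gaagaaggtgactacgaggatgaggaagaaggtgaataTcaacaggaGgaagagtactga
TUB3: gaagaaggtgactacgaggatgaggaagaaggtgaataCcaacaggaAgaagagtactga
TUB4: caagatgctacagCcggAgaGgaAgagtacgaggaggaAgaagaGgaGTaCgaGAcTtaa
TUB9: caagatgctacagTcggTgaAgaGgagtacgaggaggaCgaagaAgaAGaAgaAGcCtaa
In these stretches TUB2 and TUB3 differ at 2 bases and TUB4 and TUB9 at 12.

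**Figure D1:**
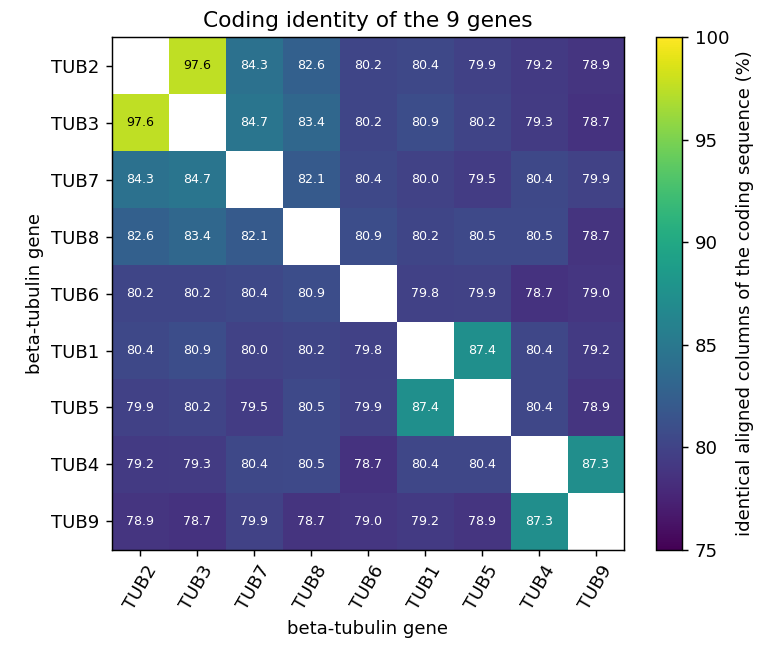
Identity of the coding sequences for every pair of the 9 beta-tubulin genes, as the percent of aligned columns that are identical, with gene names on both axes. TUB2 and TUB3 stand out at 97.6%, TUB1 with TUB5 and TUB4 with TUB9 follow, and the median pair is at 80.2%.

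This closeness bears on the counts. Of all 50-base stretches in the TUB2 transcript, 22.3% also occur exactly in TUB3, and 11.3% of its 100-base stretches do. Reads from such stretches cannot be assigned to either gene, so the separate values of TUB2 and TUB3 are uncertain. For the other 7 genes at most 1.83% of the 50-base stretches, and none of the 100-base ones, occur in another gene. Exons of TUB6 overlap those of AT5G12240 on the same strand over 83 bases. In the pfd4 comparison AT5G12240 had a mean normalized count of 352.0, against 3883.1 for TUB6 (authors' deposited values). Exons of TUB1, TUB7 and TUB9 overlap those of genes on the opposite strand, over up to 609 bases. The opposite-strand partners AT1G75785 of TUB1 and AT4G20900 of TUB9 have no row in either table. AT2G29540 at TUB7, which overlaps over 414 bases, had a mean normalized count of 258.4 in the pfd4 table against 3738.6 for TUB7 in the authors' deposited table. In the 6x_pfd table AT2G29540 was at 0.39 ± 0.16 (DESeq2, adjusted p = 0.0459 in the authors' deposited table), the direction opposite to that of TUB7 there. The sources used here do not give whether reads were counted by strand.

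Levels were set side by side per kilobase of the whole transcript. Bases shared with or overlapping other genes, as given above, were not left out, and how this bears on the order was not tested. Group levels were computed from the mean normalized count and the fold change of the authors' deposited tables, so they carry no error of their own, and the tables were normalized separately. In 14-day WT, TUB4 was highest at 4508.4 normalized counts per kb, followed by TUB3 at 3918.4, TUB2 at 3353.6, TUB7 at 2371.3 and TUB6 at 2110.6. TUB8 at 1274.2, TUB5 at 1201.3 and TUB9 at 1121.1 formed a lower group, and TUB1 was last at 325.8. TUB4, TUB3 and TUB2 thus made up 22.3%, 19.4% and 16.6% of the beta-tubulin level in those seedlings.

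In 7-day WT the order differed. TUB4 was again highest, at 7695.4 normalized counts per kb and 24.8% of the family. TUB5 at 3925.1, TUB6 at 3839.7, TUB3 at 3728.0 and TUB2 at 3321.1 lay close together behind it, then TUB7 at 2876.2, TUB9 at 2505.2, TUB8 at 2050.1 and TUB1 at 1087.7. TUB5 made up 12.7% of the family at 7 days and 5.95% at 14 days, and TUB1 3.51% and 1.61%. Age and light regime differ together between these WT groups and cannot be told apart, and no test was made. Whether neighbours in these orders differ beyond their spread cannot be said without values per library.

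**Figure D2:**
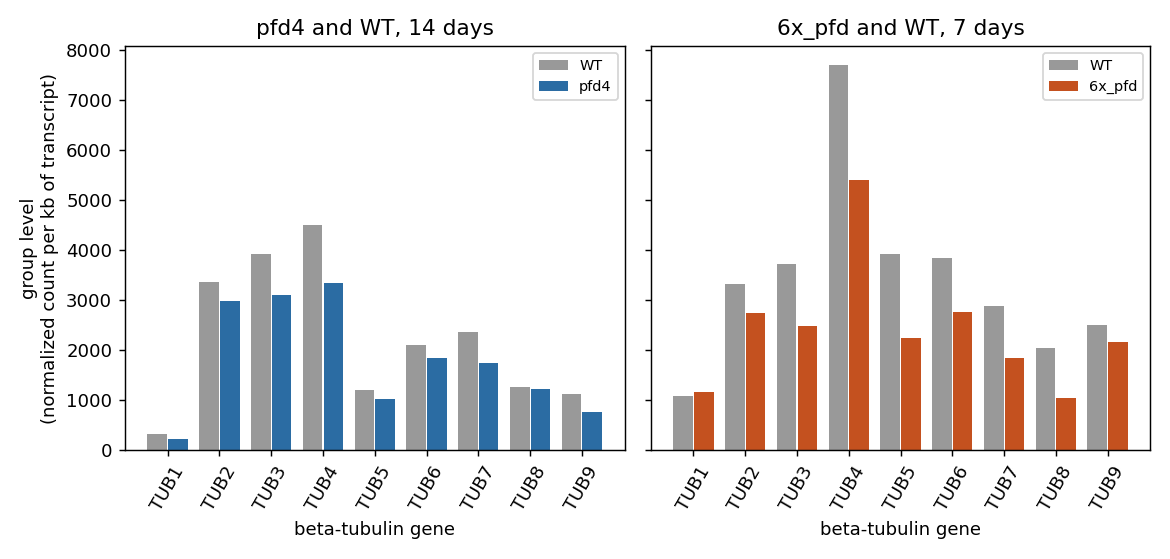
Group level of each beta-tubulin gene as normalized counts per kilobase of transcript on a linear axis starting at 0, with WT in grey beside pfd4 at 14 days (left) and beside 6x_pfd at 7 days (right). The bars are computed from the authors' group mean and fold change and have no error bars, and the panels come from tables normalized separately. TUB4 is the highest gene in every group, and TUB1 at 7 days is the one bar pair where the mutant is above WT.

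In pfd4 seedlings all 9 beta-tubulin genes had a fold change below 0 on the log2 scale, and 5 of the 9 fell: TUB9, TUB7, TUB4, TUB3 and TUB6. Among all genes tested there, 3.81% were called lower and 7.75% in either direction. These shares cover genes of all levels. By mean level per kb TUB1 was at percentile 48.1 of that comparison and the other members between 81.8 and 96.1. A share among genes of like level was not computed. The median of the 9 log2 fold changes was -0.33, beside -0.0030 over all genes in the authors' deposited table. The summed level per kb of the family was 20185 in WT and 16272 in pfd4, which was 19.4% less. In whole seedlings, fewer cells that use a gene and less of its RNA per cell cannot be told apart.

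TUB9, a gene known from pollen, had the lowest fold change, with 1121.1 normalized counts per kb in WT and 771.3 in pfd4. Its log2 fold change was -0.54 ± 0.075 (adjusted p = 2.72e-10 in the authors' deposited table, DESeq2), rank 57 of all genes by p. That is 31.2% less transcript. TUB4, its closest relative in sequence and the highest member, was 25.8% lower, at -0.43 ± 0.085 in the authors' deposited table (DESeq2, adjusted p = 3.2e-05). TUB7 fell from 2371.3 to 1746.1 per kb, at -0.44 ± 0.079 in the authors' deposited table (DESeq2, adjusted p = 2.28e-06).

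The twin genes TUB2 and TUB3 were on different sides of the threshold in pfd4. TUB3 was at -0.33 ± 0.075 in the authors' deposited table (DESeq2, adjusted p = 0.000412) and TUB2 at -0.17 ± 0.066 (adjusted p = 0.101). The difference between these 2 genes was not tested, because genes of 1 table share their libraries and many of their reads are ambiguous. TUB6 was at -0.20 ± 0.068 in the authors' deposited table (DESeq2, adjusted p = 0.0473), and lost its call when fold changes were centred on equal summed levels (adjusted p = 0.0612).

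The other 4 members did not pass. TUB1, the lowest expressed, had the widest interval: its log2 fold change in the authors' deposited table was -0.48 ± 0.19 (DESeq2, adjusted p = 0.0986), with a 95% interval from -0.85 to -0.11. TUB5 was at -0.24 ± 0.11 in the authors' deposited table (DESeq2, adjusted p = 0.167). TUB8 lay nearest to WT, with 1274.2 normalized counts per kb in WT and 1228.6 in pfd4. Its log2 fold change was -0.053 ± 0.11 in the authors' deposited table (DESeq2, adjusted p = 0.869), and its 95% interval, from -0.26 to 0.16, still allows a modest change either way.

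In 6x_pfd seedlings 8 of the 9 genes fell and TUB1 did not. There, 16.8% of all genes were called lower, 12.3% after centring on equal summed levels, and 33.6% were called in either direction, so a call is less selective there than in pfd4. These shares again cover genes of all levels, while the 9 members lay between percentiles 83.0 and 98.0 by mean level per kb. The median of the 9 log2 fold changes was -0.51, beside 0.0014 over all genes in the authors' deposited table. The summed level of the family was 31028 normalized counts per kb in WT and 21864 in 6x_pfd, which was 29.5% less.

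TUB8 had the largest decrease. It stood at 2050.1 normalized counts per kb in WT and 1048.1 in 6x_pfd, which is 48.9% less, and went from rank 8 in the family to rank 9. Its log2 fold change was -0.97 ± 0.075 in the authors' deposited table (DESeq2, adjusted p = 1.26e-35). TUB5 came next, from 3925.1 to 2241.5 per kb, at -0.81 ± 0.075 in the authors' deposited table (DESeq2, adjusted p = 1.62e-25). TUB7 was at -0.64 ± 0.087 in the authors' deposited table (DESeq2, adjusted p = 3.27e-12).

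TUB4, which supplied the largest share of beta-tubulin transcript, went from 7695.4 to 5399.5 normalized counts per kb. It was at -0.51 ± 0.060 in the authors' deposited table (DESeq2, adjusted p = 4.42e-16), and its share of the family was 24.8% in WT and 24.7% in 6x_pfd. TUB6 was at -0.47 ± 0.056 in the authors' deposited table (DESeq2, adjusted p = 8.57e-16). TUB3 was at -0.58 ± 0.058 in the authors' deposited table (DESeq2, adjusted p = 5.31e-22) and its twin TUB2 at -0.28 ± 0.076 (adjusted p = 0.00134). The ratio of TUB2 to TUB3 per kb was 0.891 in WT and 1.099 in 6x_pfd, and in the 14-day groups 0.856 in WT and 0.959 in pfd4. TUB2 thus had the smaller decrease of this pair in both mutants, with the ambiguity of shared reads given above.

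The smallest decrease among the 8 was that of TUB9, from 2505.2 to 2173.5 normalized counts per kb. Its log2 fold change was -0.20 ± 0.081 in the authors' deposited table (DESeq2, adjusted p = 0.0375), and this call did not hold after centring (adjusted p = 0.227). TUB1 was at 1087.7 normalized counts per kb in WT and 1169.5 in 6x_pfd. Its log2 fold change was 0.10 ± 0.10 in the authors' deposited table (DESeq2, adjusted p = 0.484), with a 95% interval from -0.10 to 0.31. TUB5, the closest relative of TUB1, was 3.609 times as abundant as TUB1 per kb in 7-day WT and 1.917 times in 6x_pfd, while in the 14-day groups the ratio was 3.688 in WT and 4.356 in pfd4.

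**Figure D3:**
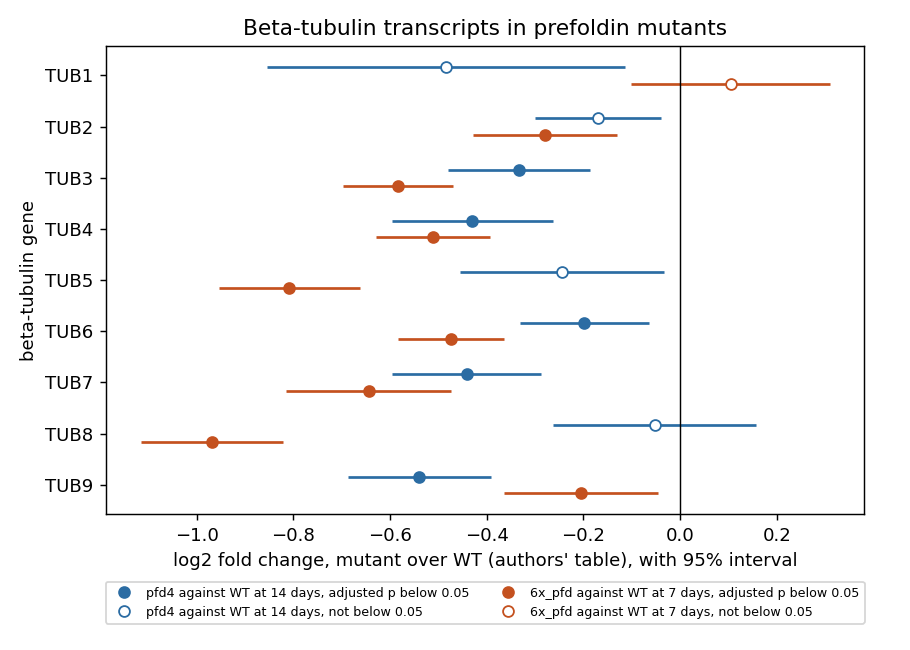
Log2 fold change, mutant over WT, of each beta-tubulin gene in pfd4 (blue) and 6x_pfd (orange), with lines for the 95% interval from the authors' SE and filled points for an adjusted p below 0.05. In pfd4 the points run from -0.54 for TUB9 to -0.053 for TUB8, and in 6x_pfd from -0.97 for TUB8 to 0.10 for TUB1.

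The responses of the 9 genes were not the same in the mutants. The effect in 6x_pfd minus that in pfd4 was tested with a two-sided Wald test whose error combined both SEs, and p was adjusted over 18035 genes by the Benjamini-Hochberg method. The mutants differ here in age and light regime as well, and these cannot be told apart. By that test 6 of the 9 genes responded differently, 4 with a lower value in 6x_pfd and 2 with a higher one. Over all genes 23.8% were called, 12.0% lower and 11.8% higher.

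TUB8 differed most, by -0.92 ± 0.13 (Wald test across all genes, adjusted p = 1.6e-10): it was the member nearest to WT in pfd4 and the furthest from it in 6x_pfd. TUB5 differed by -0.56 ± 0.13 (same test, adjusted p = 0.000204). TUB6 (-0.28 ± 0.088, adjusted p = 0.0108) and TUB3 (-0.25 ± 0.095, adjusted p = 0.0385) were past the threshold as well, and lost the call after centring (adjusted p = 0.0711 and 0.161).

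TUB9 and TUB1 differed in the other direction. TUB9 had its larger decrease in pfd4, with a difference of 0.33 ± 0.11 (same Wald test, adjusted p = 0.0147). TUB1 differed by 0.59 ± 0.22 (same test, adjusted p = 0.0308). For TUB4, TUB7 and TUB2 no difference was detected, and the 95% intervals of the difference ran from -0.29 to 0.12, from -0.43 to 0.028 and from -0.31 to 0.088. TUB4 and TUB7 are the members that fell in both mutants by amounts not distinguished by this test.

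**Figure D4:**
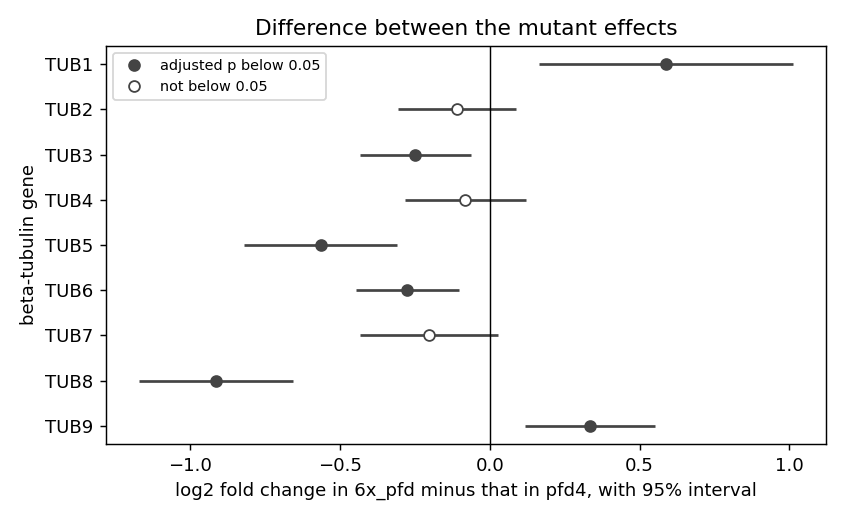
Log2 fold change in 6x_pfd minus that in pfd4 for each beta-tubulin gene, with lines for the 95% interval and filled points for an adjusted p below 0.05. TUB8 is furthest below 0 at -0.92 and TUB1 furthest above at 0.59, while the intervals of TUB2, TUB4 and TUB7 include 0.

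Partner genes of the beta-tubulins were described by counts, to be read beside the 3.81% of all genes called lower in pfd4 and the 16.8% in 6x_pfd. Of the 6 alpha-tubulin genes, 3 fell in pfd4 and 6 in 6x_pfd, with median log2 fold changes of -0.28 and -0.49 in the authors' deposited tables. In pfd4 the 3 were TUA1 (-0.46 ± 0.11), TUA5 (-0.40 ± 0.090) and TUA3 (-0.39 ± 0.11) in the authors' deposited table. TUA2 (-0.064 ± 0.064), TUA4 (-0.17 ± 0.078) and TUA6 (0.0077 ± 0.063) did not pass there in the authors' deposited table. The 3 that fell in pfd4 are also the 3 alpha-tubulin genes whose first 4 amino acids are those of the beta-tubulins, while in 6x_pfd all 6 fell. Of the 9 beta-tubulin genes, which all share this start, 5 fell in pfd4. Reads shared between alpha-tubulin genes were not checked. A relation between the chain start and the calls was not tested. The summed alpha-tubulin level per kb was 9.23% lower in pfd4 and 23.1% lower in 6x_pfd, so it was further from WT in 6x_pfd, as was the beta-tubulin sum. In 6x_pfd the alpha-tubulin genes ran from -0.60 ± 0.057 for TUA3 to -0.22 ± 0.060 for TUA6 in the authors' deposited table.

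Gamma-tubulin, which starts new microtubules, is encoded by 2 genes. TUBG1 fell in pfd4 (-0.36 ± 0.11) and both fell in 6x_pfd in the authors' deposited tables, TUBG1 at -0.41 ± 0.12 and TUBG2 at -0.37 ± 0.11. None of the 5 genes for folding cofactors was called in either table by DESeq2 or in the test of the difference, and at an unadjusted p below 0.05 there were 0 in pfd4 and 2 in 6x_pfd. Of 12 genes for microtubule-associated proteins none was called in pfd4, with 0 at an unadjusted p below 0.05, and 5 fell in 6x_pfd. Among those 5 were the bundling protein gene MAP65-1 (-0.48 ± 0.076) and its relative MAP65-3 (-0.54 ± 0.11), which acts in the phragmoplast, in the authors' deposited table. Of 6 actin genes in the tables, out of 8 listed, 1 fell in pfd4 and 2 in 6x_pfd, where 16.8% of all genes were called lower.

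The chaperones upstream of tubulin did not move alike in the mutants. Of 9 genes for CCT subunits 3 fell in pfd4. The smallest p was that of CCT8 (-0.29 ± 0.072 in the authors' deposited table), and the median was -0.18. In 6x_pfd none was called by DESeq2, 1 was at an unadjusted p below 0.05, and the median was 0.13 in the authors' deposited table. In the test of the difference 7 of the 9 were higher in 6x_pfd, beside 11.8% of all genes. Of the prefoldin genes, PFD4 was at -1.99 ± 0.17 in pfd4 in the authors' deposited table. In 6x_pfd PFD1 to PFD5 fell, from -7.03 ± 0.42 for PFD1 to -1.15 ± 0.13 for PFD5, and PFD6 was at -0.16 ± 0.099 in the authors' deposited table (DESeq2, adjusted p = 0.217).

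Some markers of tissues within the seedling changed in 1 mutant or the other, and the part of tissue make-up in the tubulin results was not tested. Of 4 root endodermis genes, 1 fell in pfd4, CASP2 (-0.66 ± 0.16 in the authors' deposited table), beside 3.81% of all genes. The median of the 4 was -0.67 in pfd4, with all 4 below 0 and all 4 at an unadjusted DESeq2 p below 0.05. In 6x_pfd none of the 4 was called by DESeq2, with 0 at an unadjusted p below 0.05. The 6 genes of dividing cells had a median of -0.094 in pfd4, with 0 called by DESeq2 and 0 at an unadjusted p below 0.05. In 6x_pfd their median was -0.57 and 4 fell, beside 16.8% of all genes, among them KN, the cytokinesis syntaxin (-0.66 ± 0.090), in the authors' deposited table. At an unadjusted DESeq2 p below 0.05 there were 5 in 6x_pfd. CYCB1;1 lay above 0 there, at 0.31 ± 0.15 (DESeq2, adjusted p = 0.0912 in the authors' deposited table). The 5 genes of green tissue had a median of 0.21 in pfd4 with 2 called higher, beside 3.94% of all genes. Their median in 6x_pfd was -1.60, with 4 called lower, beside 16.8% of all genes. Those 4 are all antenna protein genes (LHCB), as are the 2 called higher in pfd4. The remaining member, the Rubisco small subunit gene RBCS1A, was at 0.16 ± 0.16 in 6x_pfd (DESeq2, adjusted p = 0.501 in the authors' deposited table). Root and leaf markers were both present in each table, as the label of whole seedlings states.

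**Figure D5:**
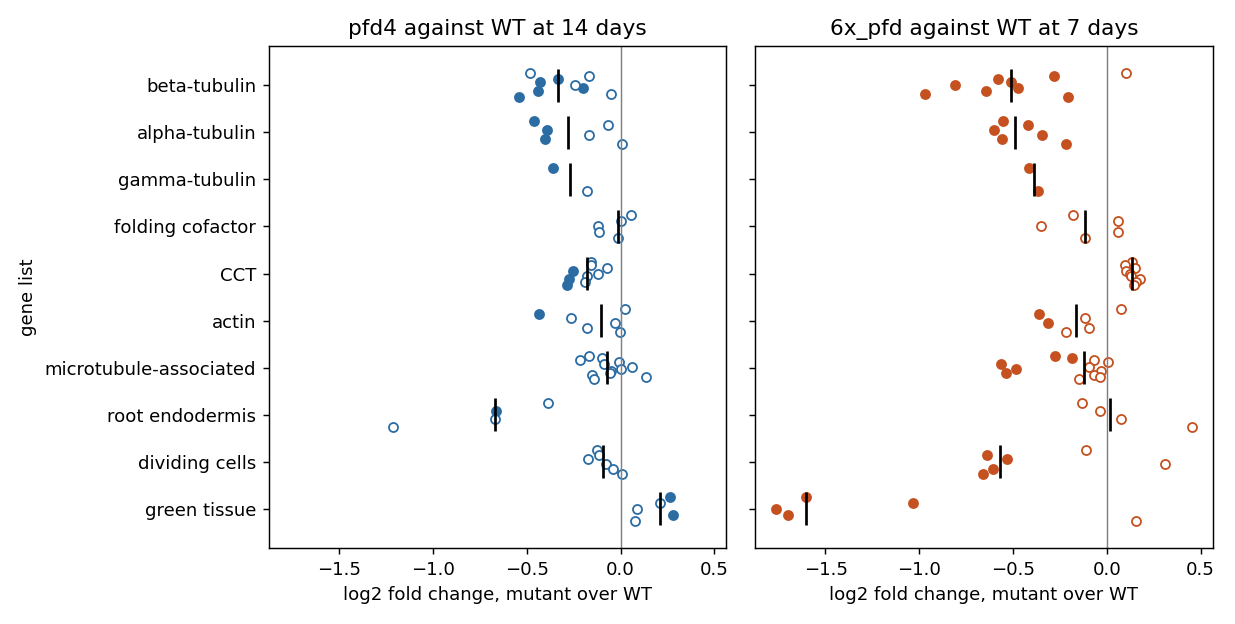
Log2 fold change, mutant over WT, of every gene in 10 lists in pfd4 (left) and 6x_pfd (right), with filled points for an adjusted p below 0.05 and a black bar at each list's median. The prefoldin list is left out because its values reach -7.03. Beta-, alpha- and gamma-tubulin genes lie mostly below 0 in both panels, and CCT genes lie below 0 on the left and above 0 on the right.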

How the data were processed

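Stranded mRNA libraries of 12 whole-seedling samples were made, per the labels' protocols. The submitters' processing notes name TAIR10 and the tools DESeq2, HTSeq, HISAT2 and cutadapt as used by the authors, and the names of the files give a minimum RPKM. How reads shared between genes were counted is not stated there. The deposited tables hold per gene, per the file headers, DESeq2's mean normalized count (signal), log2 fold change with SE, Wald score, and p-values before and after adjustment. Their sums of mean normalized counts were 29221246 for the pfd4 table and 32374115 for the 6x_pfd table, and the median SE was 0.126 and 0.121. The Wald score equalled the fold change over its SE within 6.76e-11, and a repeated Benjamini-Hochberg adjustment differed from the deposited one by at most 2.67e-15.

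Group levels, intervals, centring and the difference test were computed in Python 3.11.15 with pandas, numpy and scipy, and the difference test was tested on simulated data. The simulated effects were drawn with the deposited SEs, so this checked the computation and not whether those SEs are right. Centring removed the log2 ratio of summed group levels, -0.00779 in the pfd4 and -0.0783 in the 6x_pfd table, from every fold change. Transcript lengths (the longest annotated transcript) and sequences came from the RefSeq annotation of TAIR10.1, used for names, lengths, sequences and neighbours only. Lengths were found for 18288 and 19310 genes. Pairs were aligned globally with Biopython. The members, the lists and the markers were chosen with earlier results of these data known, and the root, dividing-cell and green-tissue lists were added last; 1 root gene is not reported here. Named genes are all beta- and alpha-tubulin genes, the prefoldin genes, and up to 2 called members per other list with the smallest p. CYCB1;1 and RBCS1A were named because they lay on the other side of 0 from the rest of their lists in 6x_pfd. The genes that overlap members were named after their values were seen, and no gene was named for a like pattern because 2 fold changes per gene give none.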

Additional observations from a re-analysis of the deposited data

Results flagged for a closer look

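For 6 beta-tubulin genes the effect in 6x_pfd differed from that in pfd4 in the Wald test of the difference, adjusted over all genes tested in both tables. The difference in log2 fold change, 6x_pfd minus pfd4, was -0.92 for TUB8, -0.56 for TUB5, -0.28 for TUB6 and -0.25 for TUB3. It was 0.59 for TUB1 and 0.33 for TUB9. TUB5 and TUB1, which are close relatives in sequence, thus differed in opposite directions. Genotype, age and light regime change together in this contrast and cannot be told apart.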

How the results depend on the processing

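No paired analysis was possible because the deposited tables hold no values per library, and for the same reason the planned replicate block and leaving out each replicate were not run. In pfd4 the number of beta-tubulin genes called lower was 5 as deposited (3.81% of all genes), 4 at an adjusted p below 0.01 (1.99%), 4 after centring (3.57%) and 5 among genes above an abundance minimum of 1 CPM of the summed mean normalized counts (3.91%). It was 0 with a minimum absolute log2 fold change of 1 (0.278% of all genes), which no member reached in either mutant, and 0 in the test against a 25% change, where 0.201% of all genes were called lower. In 6x_pfd it was 8 as deposited (16.8% of all genes), 7 at 0.01 (12.3%), 7 after centring (12.3%), 8 with the abundance minimum (16.9%), 0 with the minimum fold (2.33%) and 5 in the test against a 25% change, where 4.13% of all genes were called lower. In the 25% test the bound for a decrease was WT at 25% above the mutant, which is a smaller loss than 25% of WT. The number of genes whose effects differed was 6 in the test as reported (23.8% of all genes). It was 2 at an adjusted p below 0.01, TUB5 and TUB8, where 16.0% of all genes were called, and 4 after centring (25.4%). No member changed direction under these settings. The SE from 3 samples per group limits the precision, most for TUB1 in pfd4.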
